A study of Mus musculus with 8 samples.

Results

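The genes described here are Nfe2l2, which encodes the transcription factor NRF2, and 8 genes known as its targets in the defence against oxidants, namely Nqo1, Gclc, Gclm, Hmox1, Txnrd1, Srxn1, Slc7a11 and Aldh3a1. They were chosen by symbol, and all 9 are found among the 27775 gene rows of both count tables, each with at least 1 unique molecular identifier (UMI, a tag that marks 1 captured mRNA molecule) in each tumor. The tables hold single cells of 2 pancreatic ductal adenocarcinomas of KPC mice, 1 of medium size and 1 of large size, sequenced from their 3′ ends on the 10x Genomics Chromium (v2 kit). The alleles of KPC mice include LSL-Trp53 R172H/+ and Pdx-1-Cre, so that mutant Trp53 is switched on wherever Cre, driven by the Pdx1 promoter of the pancreatic lineage, has been active. Both mice were untreated controls, and their ages are not given in the sources used here. The labels list 4 technical replicates for each tumor, which 1 table holds together, so each size is represented by 1 tumor and no test between groups was possible. Tumor size, animal, library and sequencing depth cannot be told apart.

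NRF2 is held in the cytoplasm and sent for degradation by KEAP1, which acts as a sensor of oxidants and electrophiles. When KEAP1 is modified, NRF2 accumulates, enters the nucleus and, paired with a small MAF protein, binds antioxidant response elements (AREs) in the promoters and enhancers of its target genes, among which are those for glutathione synthesis, the thioredoxin system, quinone reduction and haem breakdown. BACH1 competes for the same elements, Hmox1 being its best known target, and several of these genes also answer to other factors, such as ATF4 at Slc7a11 and the aryl hydrocarbon receptor at Nqo1 and Aldh3a1.

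The ARE is the sequence through which NRF2 acts on its targets, so the promoters of these genes were searched for its core, TGACNNNGC, on both strands, from 250 bases before to 50 bases after the annotated start. Of the 9 genes, 6 have a promoter in the RefSeq table used (GRCm38.p6), and the core was found in those of 4 of them, Nfe2l2, Gclm, Txnrd1 and Srxn1. Over the whole table, 14.0% of 27025 genes hold it. The 4 windows are printed 5′ to 3′ on the strand of the gene, with the match in capitals, and a match is a run of letters, not a measured binding site.
Nfe2l2 (chr2:75704614-75704913, minus strand): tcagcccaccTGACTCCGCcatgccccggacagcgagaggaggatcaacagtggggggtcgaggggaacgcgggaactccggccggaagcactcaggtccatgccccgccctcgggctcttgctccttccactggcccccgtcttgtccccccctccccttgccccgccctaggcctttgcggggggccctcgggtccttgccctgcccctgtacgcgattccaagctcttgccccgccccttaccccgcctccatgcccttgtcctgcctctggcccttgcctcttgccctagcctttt
Gclm (chr3:122245307-122245606, plus strand): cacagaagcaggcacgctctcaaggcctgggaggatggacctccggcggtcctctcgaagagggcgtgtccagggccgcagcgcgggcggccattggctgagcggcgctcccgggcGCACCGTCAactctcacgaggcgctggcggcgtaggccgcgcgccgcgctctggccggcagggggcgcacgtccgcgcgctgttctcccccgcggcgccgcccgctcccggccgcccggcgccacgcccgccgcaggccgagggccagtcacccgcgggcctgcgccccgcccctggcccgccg
Txnrd1 (chr10:82858956-82859255, plus strand): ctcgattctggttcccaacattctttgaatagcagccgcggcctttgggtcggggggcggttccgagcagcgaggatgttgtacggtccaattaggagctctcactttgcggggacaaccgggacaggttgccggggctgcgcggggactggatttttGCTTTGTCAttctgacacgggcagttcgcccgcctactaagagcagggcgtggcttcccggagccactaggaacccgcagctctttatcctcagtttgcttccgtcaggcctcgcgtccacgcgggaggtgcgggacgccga
Srxn1 (chr2:152105274-152105573, plus strand): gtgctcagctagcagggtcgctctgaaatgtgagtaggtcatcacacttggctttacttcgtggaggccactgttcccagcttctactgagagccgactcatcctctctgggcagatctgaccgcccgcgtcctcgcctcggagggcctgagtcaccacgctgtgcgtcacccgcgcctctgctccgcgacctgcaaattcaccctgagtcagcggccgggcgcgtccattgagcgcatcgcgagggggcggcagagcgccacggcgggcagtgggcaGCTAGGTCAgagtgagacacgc
The match begins 240 bases before the start in Nfe2l2, 134 bases before it in Gclm, 92 bases before it in Txnrd1 and 29 bases after it in Srxn1. It lies on the strand of the gene in Nfe2l2 and on the other strand in the remaining genes. For Txnrd1, which has 3 annotated starts in the table, the window of the start with a match is shown. The windows of Nqo1 and Slc7a11 hold no run of these letters, and Gclc, Hmox1 and Aldh3a1 have no entry. The data hold no measurement of binding at these promoters.

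The medium-size tumor had 20301669 UMIs in 2812 cells (median 5456.5 per cell) against 2239012 UMIs in the 1533 cells of the large-size tumor (median 1037 per cell), and the tumors shared 5 cell barcodes. Levels are given as counts per 1000000 UMIs of a cell group (CPM), with exact 95% Poisson intervals that cover counting error only. A gene was called different between cell groups when its CPM ratio was 2 or more. Cell groups were clustered with the 9 genes left out of the variable genes and named from marker genes. In the medium-size tumor, 8 clusters with 2331 cells were epithelial-like, 2 clusters with 238 cells were monocyte/macrophage-like, and 74 mesothelial-like, 70 stromal-like and 39 endothelial-like cells were found. In the large-size tumor, 688 cells were epithelial-like, 253 monocyte/macrophage-like, 50 stromal-like and 11 endothelial-like, and 259 cells in 2 clusters had, beside epithelial markers, those of enterocytes or goblet cells and are called intestinal-like. Cluster 12 of the medium-size tumor (60 cells, with both epithelial and macrophage markers and the highest median doublet score of its tumor, 0.147) stayed unnamed, as did cluster 1 in the other tumor (272 cells, led by Ggct, Ramp1 and Ank). The latter had 2 of 11 epithelial and 4 of 7 mesenchymal markers. Malignant epithelial cells and any non-malignant ones were not told apart.

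The first comparison asked in which of the major cell classes of the medium-size tumor each gene was expressed. Of the 9 genes, 8 differed at least 2-fold between the epithelial-like and the monocyte/macrophage-like cells, where 39.2% of the 10894 genes with at least 50 UMIs did. The genes did not go 1 way. Higher in the macrophage-like cells were Slc7a11, Hmox1, Nfe2l2 and Srxn1 (4 of 9, against 9.77% of all genes), and higher in the epithelial-like cells were Gclc, Gclm, Nqo1 and Aldh3a1 (4 of 9, against 29.4%). Txnrd1 was within 2-fold. The median log2 ratio, epithelial-like over macrophage-like, was -0.28 over the 9 genes and 0.46 over all genes tested, with a count of 0 taken as 3 UMIs.

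Nfe2l2, at chr2:75675513-75704641 on the minus strand (GRCm38, as all positions here), was at 194 CPM (167 to 225) in the macrophage-like cells and at 65.7 CPM (62.0 to 69.5) in the epithelial-like cells, 2.96-fold higher (2.51 to 3.47) in the former. Its levels in the other classes were 105 CPM in mesothelial-like, 62.8 CPM in stromal-like and 53.4 CPM in endothelial-like cells. The intervals of the last pair overlapped with that of the epithelial-like cells, so that only the macrophage-like and the mesothelial-like cells stood above it. It was again higher in the macrophage-like cells of the large-size tumor, 143 CPM (94.8 to 206) against 76.1 CPM (61.7 to 92.8), a ratio of 1.88 (1.19 to 2.88) that missed 2-fold, though it passed under 4 other settings (log2 ratio, epithelial-like over macrophage-like, of -1.02 to -1.13).

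Slc7a11 (chr3:49892526-50443614, minus strand) encodes xCT, the cystine importer that feeds glutathione synthesis. It had 606 UMIs in 238 macrophage-like cells, 658 CPM (607 to 713), against 893 UMIs in 2331 epithelial-like cells, 49.4 CPM (46.2 to 52.8), and was thus 13.3-fold higher (11.99 to 14.8) in the macrophage-like cells. Both macrophage-like clusters had it at the same height, 656 CPM in cluster 9 (led by Wfdc17, Chil3 and Lyz2) and 667 CPM in cluster 13 (led by Cd74, C1qa and C1qb, with cycling markers as well). With each cell thinned to 2500 UMIs, 56.7% of the macrophage-like cells (50.2 to 63.1) and 8.28% of the epithelial-like cells (7.19 to 9.47) had a UMI of it, and without thinning 64.7% and 18.5%, at median depths of 3516 and 5968 UMIs. The same order was found in the large-size tumor with a smaller ratio, 260 CPM (194 to 342) against 58.8 CPM (46.3 to 73.7), 4.42-fold (3.03 to 6.39).

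Hmox1 (chr8:75093621-75100589, plus strand) encodes haem oxygenase 1, which breaks haem down to biliverdin, iron and carbon monoxide. It was at 503 CPM (458 to 551) in the macrophage-like and at 52.9 CPM (49.6 to 56.4) in the epithelial-like cells, a ratio of 9.50 (8.49 to 10.6). Its second highest level was in the mesothelial-like cells, 291 CPM (240 to 350), above those of the stromal-like cells (101 CPM) and endothelial-like cells (90.3 CPM). Unlike Slc7a11, it differed between the macrophage-like clusters, at 556 CPM in cluster 9 and 297 CPM in cluster 13. Its levels in the large-size tumor were 280 CPM (211 to 365) in macrophage-like and 40.0 CPM (29.8 to 52.6) in epithelial-like cells, with a ratio of 7.01 (4.70 to 10.5).

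Srxn1 (chr2:152105516-152111376, plus strand), sulfiredoxin, which repairs over-oxidised peroxiredoxins, was 2.31-fold higher (1.66 to 3.14) in macrophage-like cells, at 49.97 CPM against 21.6 CPM in the medium-size tumor. Only 9 and 19 UMIs were counted in the large-size tumor, below the minimum for a call, at 45.9 CPM and 14.9 CPM. Txnrd1 (chr10:82833951-82897712, plus strand), thioredoxin reductase 1, was at 137 CPM (114 to 163) in macrophage-like and 113 CPM (108 to 118) in epithelial-like cells, and at 153 CPM and 156 CPM in the large-size tumor. Across the 5 named classes of the medium-size tumor it ranged only from 79.2 to 137 CPM, and was the gene whose level changed least between classes.

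Gclc (chr9:77754535-77794485, plus strand) and Gclm (chr3:122245557-122270732, plus strand) encode the catalytic and the modifier subunit of glutamate-cysteine ligase, the first enzyme of glutathione synthesis. Gclc was at 98.9 CPM (94.4 to 104) in epithelial-like and 42.4 CPM (30.1 to 57.9) in macrophage-like cells, a ratio of 2.33 (1.70 to 3.29). This call was lost under other settings, with a log2 ratio of 0.80 at a clustering resolution of 0.4 and 0.97 with each cell thinned to 2500 UMIs, against 1.22. The level of Gclm was 151 CPM (145 to 157) in the former and 56.5 CPM (42.2 to 74.1) in the latter, 2.67-fold (2.03 to 3.58) apart. The subunits thus went in the direction opposite to Slc7a11, whose product supplies their substrate. The ratios were 3.31 (1.48 to 9.18) and 2.94 (1.61 to 5.97) in the large-size tumor, on 6 and 11 UMIs in its macrophage-like cells.

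Nqo1 (chr8:107388225-107403206, minus strand), the quinone reductase often used as a readout of NRF2 activity, had 316 UMIs in the epithelial-like cells, 17.5 CPM (15.6 to 19.5), and 0 UMIs in the 238 macrophage-like cells, which allows up to 3.26 CPM (the level of 3 UMIs, the limit used for every count of 0 here), so that it was at least 5.37-fold higher in the former. No UMI of it was counted in the 253 macrophage-like cells of the large-size tumor either, against 9 UMIs in its epithelial-like cells. Aldh3a1 (chr11:61207537-61218421, plus strand), an aldehyde dehydrogenase, had 642 UMIs in the epithelial-like cells, 35.5 CPM (32.8 to 38.4), and 3 UMIs in the macrophage-like cells, a ratio of 10.9 (3.71 to 53.0).

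**Figure D1:**
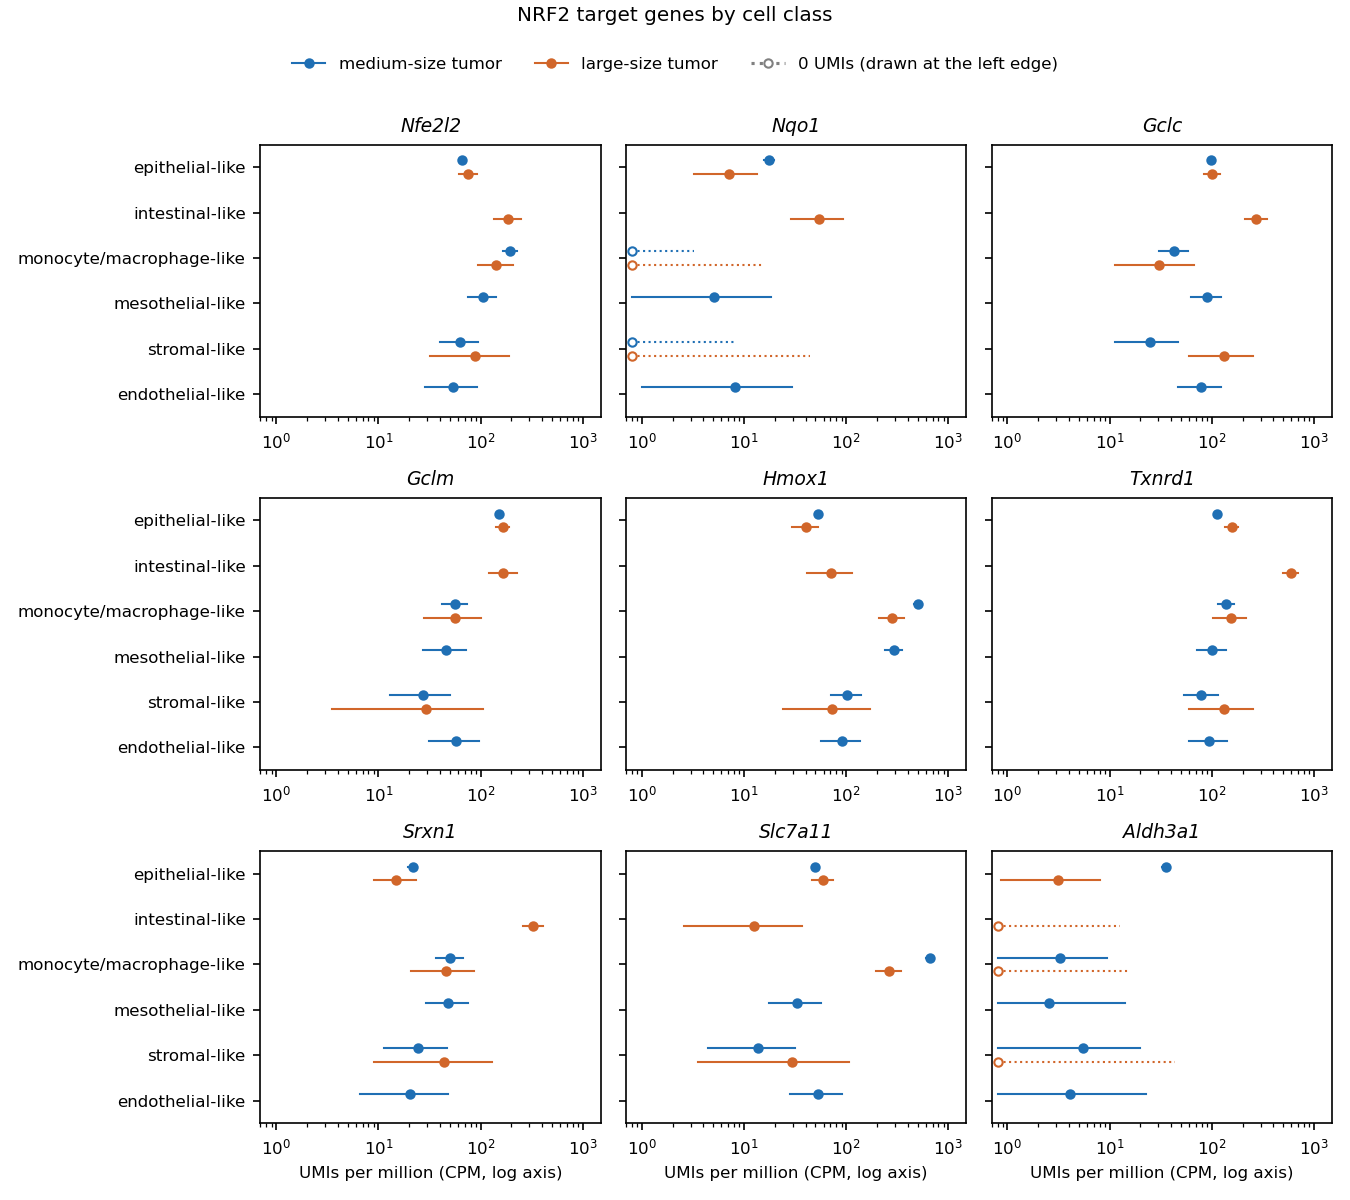
Level of each gene (CPM, log axis) in each named cell class of the medium-size tumor (blue) and the large-size tumor (orange), with exact 95% Poisson intervals that cover counting error only. Open points at the left edge stand for 0 UMIs, with a dotted line up to the level of 3 UMIs, and the 11 endothelial-like cells of the large-size tumor are left out. Slc7a11 and Hmox1 lie farthest right in the monocyte/macrophage-like cells of both tumors, Txnrd1 and Srxn1 in the intestinal-like cells, and Nqo1 has no UMI in the macrophage-like cells.

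RNA set free by other cells can give UMIs in cells that do not express a gene, so the markers of each class were counted in the other. In the medium-size tumor the 11 epithelial markers were found in the macrophage-like cells at a median of 6.45% (4.96 to 10.7%) of their level in the epithelial-like cells. Gclc and Gclm were there at 42.8% and 37.5%, above all 11 markers, while Aldh3a1 (9.17%) lay within their range and Nqo1 (0%) below it. In the other direction, the 11 macrophage markers were found in the epithelial-like cells at a median of 0.859% (0.537 to 12.3%) of their macrophage level, the highest being Cd14. Slc7a11 (7.51%) and Hmox1 (10.5%) lay above 10 of the 11 markers and below Cd14. In the large-size tumor Slc7a11 (22.6%) and Hmox1 (14.3%) lay above all 6 macrophage markers with enough UMIs (0.693 to 5.72%). Gclc (30.2%) and Gclm (34.0%) lay there above all 11 epithelial markers (0 to 18.1%).

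Of a wider list of 54 other genes of the NRF2 pathway, 50 were tested in this comparison, of which 21 were higher in epithelial-like (29.4% of all genes were) and 7 in macrophage-like cells (9.77%). The median log2 ratio of the list was 0.49, close to the 0.46 of all genes. The genes highest in the epithelial-like cells were Gsta1, a glutathione S-transferase (17.4-fold, 9.70 to 34.9), Gpx2, a glutathione peroxidase of epithelia (16.0-fold, 11.8 to 22.2), and Akr1b8, an aldo-keto reductase (13.8-fold, 8.60 to 23.7). Those highest in the macrophage-like cells were Fth1 and Ftl1, the ferritin chains that store the iron released by haem breakdown, at 8.71-fold and 3.00-fold, and Sod2, the mitochondrial superoxide dismutase, at 4.24-fold. Thus Hmox1 and both ferritin genes had their higher level in the same cells, in the large-size tumor too (Fth1 7.52-fold, Ftl1 4.07-fold). Gsta1 and Ftl1 have near-identical copies in the genome, and how the authors' counting split such reads is not given in the sources used here, so the values of these genes are uncertain.

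In the large-size tumor, 6 of the 9 genes passed the minimum of 50 UMIs, and 4 of them differed at least 2-fold between the classes (Gclc and Gclm higher in epithelial-like, Hmox1 and Slc7a11 in macrophage-like cells), where 38.1% of 3505 genes did, 27.4% being higher in epithelial-like and 10.7% in macrophage-like cells. All 4 went the same way as in the medium-size tumor. Of the wider list, 32 genes were tested, 9 of them higher in the epithelial-like and 7 in the macrophage-like cells, with a median log2 ratio of -0.10 against 0.39 over all genes. The highest were Gpx2 (45.4-fold, 8.08 to 1799, from 1 UMI in the macrophage-like cells), Gsta4 (35.5-fold) and Gsta1 (12.9-fold), and Sod2 (3.71-fold) followed the ferritin genes in the macrophage-like cells.

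The second comparison asked how the genes varied among the 8 epithelial-like clusters of the medium-size tumor. The clusters were led by the gastric pit genes Gkn1, Gkn2 and Gkn3 (cluster 1, 525 cells), the cell cycle genes Ube2c, Birc5 and Cenpf (cluster 2, 300 cells), Tff3, Ly6d and Reg1 (cluster 3, 288 cells), Mcpt8, Cldn6 and Hmga2 (cluster 4, 275 cells), Yap1, Birc2 and Dcun1d5 (cluster 5, 250 cells), Krt17, Cldn4 and Slco2a1 (cluster 6, 237 cells), Dmbt1, Lcn2 and Sftpd (cluster 7, 233 cells) and Inhba, Bmp2 and Piezo2 (cluster 8, 223 cells, with 5 of 7 mesenchymal markers and only 3 of 11 epithelial ones). Between the highest and the lowest cluster, 7 of the 9 genes differed at least 2-fold, but so did 76.2% of the 10674 genes with at least 50 UMIs, and 64.2% of those with as many UMIs as the lowest of the 9. The count of genes that varied is thus near that of genes at large, and the description concerns which clusters were high.

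Aldh3a1 varied most. It was at 131 CPM (340 UMIs) in cluster 5, 62.9 CPM (220 UMIs) in cluster 2 and 17.6 CPM (63 UMIs) in cluster 1. It was at 5.94 CPM in cluster 4 and 3.92 CPM in cluster 6, had 1 UMI in cluster 8 and none in the 288 cells of cluster 3 and the 233 cells of cluster 7. Clusters 5 and 2 together held most of its UMIs, and the ratio of cluster 5 to cluster 3 was at least 70.5, while that of cluster 2 to cluster 3 was at least 33.8. It was also among the 10 leading genes of cluster 5, although it was kept out of the genes used for clustering.

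Cluster 5 also had the highest level of Slc7a11, Gclm, Hmox1 and Txnrd1. Slc7a11 was at 106 CPM (93.6 to 119) there, at 55.1 CPM in cluster 1, 55.2 CPM in cluster 2 and 47.4 CPM in cluster 8, and between 19.6 and 24.2 CPM in clusters 3, 4, 6 and 7. The clusters thus fell in 3 steps whose intervals did not overlap, and the highest was 5.39-fold (3.78 to 7.90) above the lowest, cluster 6. Hmox1 was at 93.0 CPM (81.7 to 106) in cluster 5, against 26.7 CPM in cluster 3 and 30.6 CPM in cluster 2, and between 39.5 and 59.9 CPM in the others. Gclm was at 220 CPM in cluster 5, 201 CPM in cluster 2 and 199 CPM in cluster 7, whose intervals overlapped, and lowest in cluster 4, at 91.9 CPM. Txnrd1 ran from 80.0 CPM in cluster 3 to 147 CPM in cluster 5, a ratio of 1.84 (1.501 to 2.26), which passed 2-fold at a resolution of 1.2 (2.13) and with thinned cells (2.41).

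Nfe2l2 itself was lowest in cluster 5, at 42.8 CPM (35.2 to 51.6), and between 63.9 and 76.1 CPM in the other 7 clusters, all of whose intervals overlapped with each other. The interval of cluster 5 overlapped only with that of cluster 7, and the highest over the lowest ratio was 1.78 (1.42 to 2.23), or 2.08 at a resolution of 1.2. The mRNA of the factor and those of these targets thus stood in opposite order in this cluster, and its protein was not measured.

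Nqo1, Gclc and Srxn1 had their highest levels elsewhere. Nqo1 was at 70.1 CPM (57.8 to 84.3) in cluster 3, at 22.3 CPM in cluster 7 and 21.3 CPM in cluster 1, and at 3.24 to 3.36 CPM, from 6 UMIs each, in clusters 4, 6 and 8. The ratio of cluster 3 to cluster 4 was 21.6 (9.63 to 60.2). Gclc was at 217 CPM (193 to 244) in cluster 7, 155 CPM in cluster 3 and 131 CPM in cluster 5, and fell to 48.1 CPM in cluster 4 and 44.7 CPM in cluster 8, a ratio of 4.86 (3.79 to 6.30). Srxn1 was at 35.4 CPM in cluster 3, 28.3 CPM in cluster 7 and 9.19 CPM in cluster 4, a ratio of 3.85 (2.21 to 7.06) between the first and the last, which was 1.99 at a clustering resolution of 0.4. Clusters 4, 6 and 8 were thus the lowest in Nqo1 and Gclc, and cluster 4 the lowest in 3 of the genes. Cluster 3 had 10 of 11 epithelial and 2 of 5 goblet markers, with the goblet cell gene Spink4 among its 10 leading genes. No epithelial marker was among these, as in all other epithelial-like clusters except cluster 6. Without cluster 3 the highest over the lowest ratio of Nqo1 was 6.88.

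**Figure D2:**
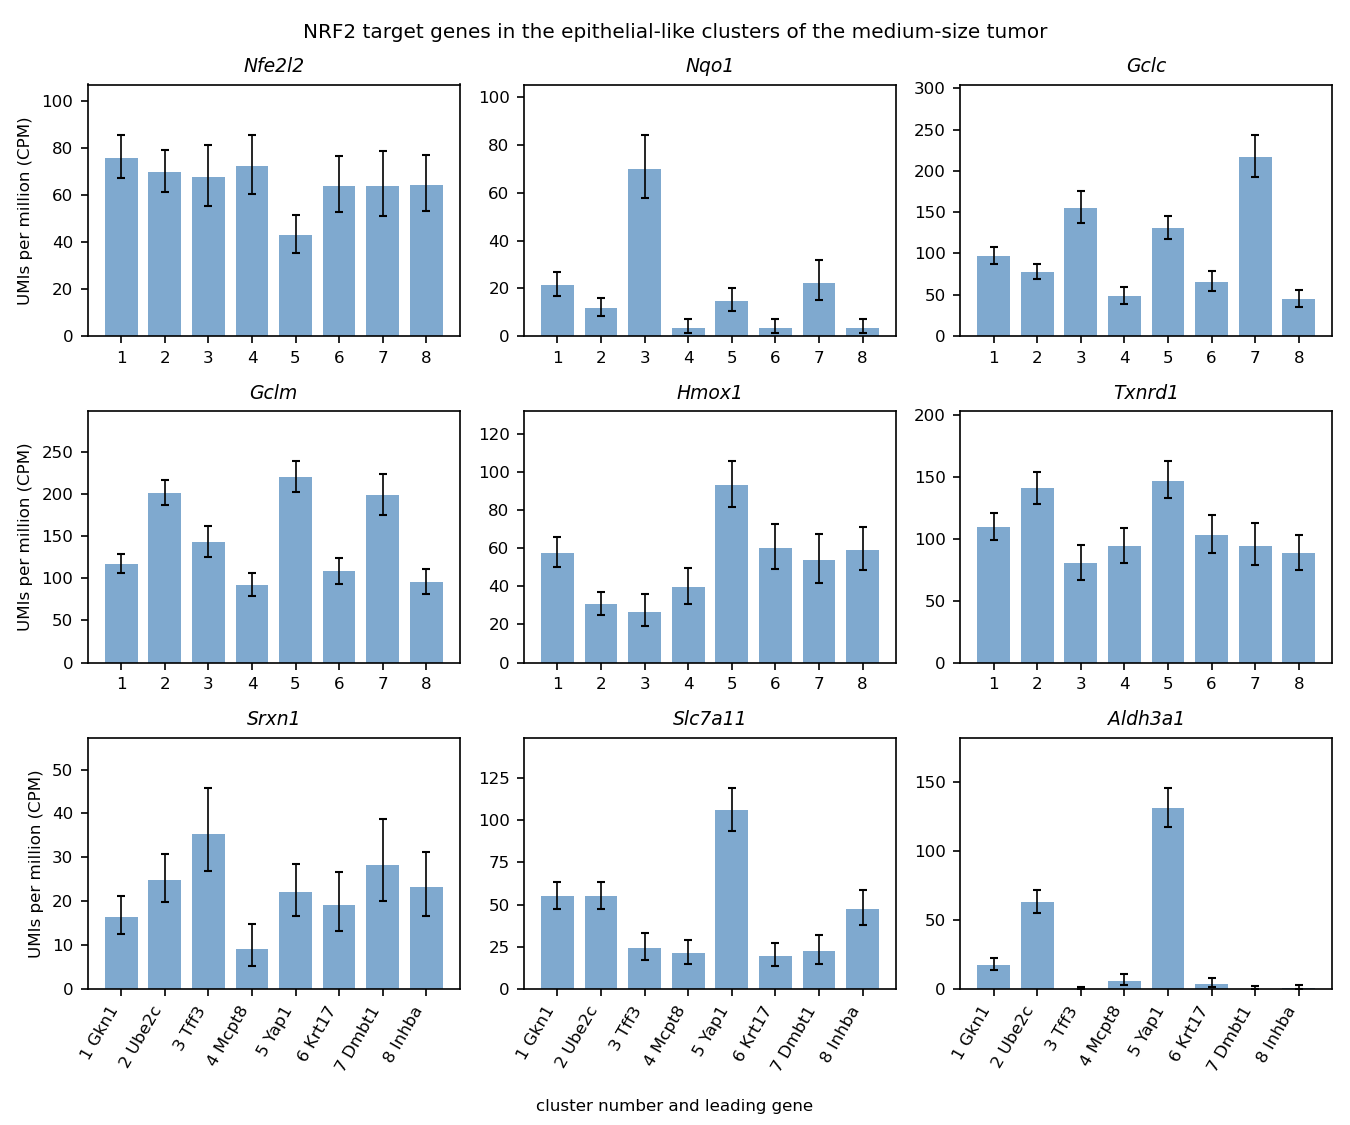
Level of each gene (CPM, linear axis from 0, a separate scale in each panel) in the 8 epithelial-like clusters of the medium-size tumor, numbered and named by their leading gene. Bars are the pooled level of a cluster and whiskers exact 95% Poisson intervals (counting error only), which for 0 UMIs end at the level of 3 UMIs. Cluster 5 is highest for Aldh3a1, Slc7a11, Hmox1, Gclm and Txnrd1 and lowest for Nfe2l2, and cluster 3 is highest for Nqo1 and Srxn1.

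Of the wider pathway list, 39 of 50 genes differed at least 2-fold between the clusters, with a median ratio of 2.81, against 2.80 over all genes. The largest ratios belonged to the glutathione S-transferases Gsta1 (827 CPM in cluster 3 against 11.03 CPM in cluster 8), Gsta3 (836 CPM in cluster 3 against 17.3 CPM in cluster 4) and Gsta4 (2724 CPM in cluster 3 against 114 CPM in cluster 8). All 3 had their highest level in the cluster where Nqo1 was highest. The smallest ratios were those of Cul3, the scaffold of the ligase that KEAP1 serves (1.51), Fech, the last enzyme of haem synthesis (1.54), and Sod1, the cytosolic superoxide dismutase (1.54).

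In the large-size tumor, 4 epithelial-like clusters had at least 30 cells, and 5 of the genes passed the minimum, of which 4 differed at least 2-fold, against 54.7% of 3090 genes. Slc7a11 was highest in the gastric pit cluster 6, at 102 CPM (30 UMIs), and lowest in cluster 7, led by Lgals2, Dmbt1 and Tspan1, at 14.7 CPM (2 UMIs), a ratio of 6.93 (1.76 to 59.9). Nfe2l2 ran from 50.8 CPM in cluster 6 to 161 CPM in cluster 7, a ratio of 3.17 (1.57 to 6.58), again opposite to Slc7a11. Gclm was highest in the cycling cluster 5 (204 CPM) and lowest in cluster 3 (79.5 CPM), and Gclc highest in cluster 6 (159 CPM) and lowest in cluster 5 (68.5 CPM). Cluster 3 was led by Onecut2, 1500012F01Rik and Xist. Its median was 829.5 UMIs per cell, against 2458 in cluster 5, and the part of depth was not tested. In both tumors Slc7a11 was low in the cluster with Dmbt1 among its 3 leading genes. This was not particular to it, as clusters 3, 4 and 6 of the medium-size tumor were as low. In the large-size tumor the interval of cluster 7 (1.77 to 52.9 CPM) overlapped with those of clusters 3 and 5. Txnrd1 was within 2-fold, at a ratio of 1.71 (1.08 to 2.64). These ratios depended on how the cells were clustered: at a resolution of 0.4 those of Nfe2l2 (1.92), Gclc (1.11) and Slc7a11 (1.70) fell under 2-fold, and with all variable genes kept that of Nfe2l2 did (1.57), while that of Txnrd1 passed it at a resolution of 1.2 (2.37) and with 20 principal components (2.27). Of the wider list, 16 of 29 genes differed, with a median ratio of 2.21 against 2.10 over all genes, from Gsta1 (8.33), Gpx2 (6.13) and Gstm1 (4.70) down to Sod1 (1.23), Ugdh (1.24) and Atf4 (1.28).

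The third comparison was between the tumors, over their epithelial-like cells. Of the 9 genes, 7 were within 2-fold and 2, Nqo1 and Aldh3a1, were lower in the large-size tumor, where 22.7% of 7514 genes with at least 200 UMIs differed at least 2-fold and 17.8% were lower in the large-size tumor. The median log2 ratio, large over medium, was 0.04 over the 9 genes and -0.14 over all genes. Aldh3a1 had 4 UMIs, 3.14 CPM (0.855 to 8.03), in the large-size tumor and 642 UMIs, 35.5 CPM, in the medium-size tumor, 11.3-fold lower (4.40 to 41.7). Nqo1 was at 7.06 CPM (9 UMIs) and 17.5 CPM, 2.48-fold lower (1.29 to 5.47). Without the cells of cluster 3 the medium-size tumor was at 12.3 CPM of Nqo1, and the ratio of 0.572 (0.258 to 1.11) no longer passed 2-fold. Aldh3a1 stayed at a ratio of 0.0804 (0.0218 to 0.207), and without cluster 5, which held 340 of its 642 UMIs, it was 6.22-fold lower (2.40 to 23.0). Of the 302 UMIs left, 220 were in cluster 2, and no ratio without both clusters is given. Clusters 3, 4, 6, 7 and 8 were at 0 to 5.94 CPM, so that the difference between the tumors rested on a part of the clusters. Nqo1 and Aldh3a1 both passed the minimum of 200 UMIs through the medium-size tumor alone.

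Over all epithelial-like cells, the levels of Gclc, Gclm and Slc7a11 differed between the tumors by no more than the counting error. The large over medium ratio was 1.02 (0.849 to 1.22) for Gclc, 1.09 (0.944 to 1.26) for Gclm and 1.19 (0.927 to 1.51) for Slc7a11. That of Nfe2l2 was 1.16 (0.931 to 1.42), that of Hmox1 0.756 (0.559 to 1.00) and that of Srxn1 0.689 (0.410 to 1.09). Txnrd1 was the only one of the 7 whose interval left out 1 over all epithelial-like cells, at 156 CPM against 113 CPM, 1.38-fold higher (1.19 to 1.60) in the large-size tumor. Other intervals also left out 1 when a cluster of the medium-size tumor was left out, those of Slc7a11 at 1.47 (1.14 to 1.87) and Gclm at 1.18 (1.02 to 1.36) without cluster 5, and that of Hmox1 at 0.721 (0.533 to 0.956) without cluster 3. The 2 sets of cells are not alike. Cluster 8 of the medium-size tumor (3 of 11 epithelial, 5 of 7 mesenchymal markers) is counted, and cluster 1 of the large-size tumor (2 of 11, 4 of 7) is not. The latter had Hmox1 at 27.0 CPM (13.9 to 47.1), so that adding it would lower the Hmox1 ratio, and no interval is given for that.

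**Figure D3:**
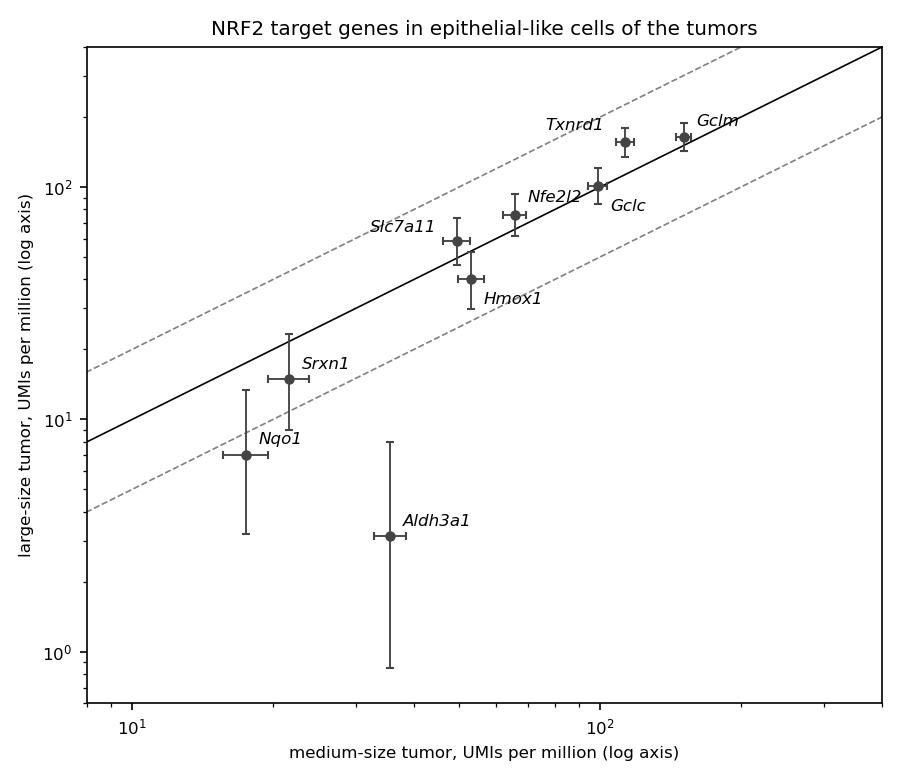
Level of each gene in epithelial-like cells, with the medium-size tumor on the horizontal and the large-size tumor on the vertical axis, in CPM on log axes, with exact 95% Poisson intervals (counting error only). The solid line marks equal levels and the dashed lines 2-fold differences. Aldh3a1 and Nqo1 lie below the lower dashed line and the other 7 genes between the lines.

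Clusters with the same marker state were also set side by side. Between the gastric pit clusters (cluster 1 in the medium-size, cluster 6 in the large-size tumor), none of the 6 genes with enough UMIs differed 2-fold, against 24.6% of 2606 genes. Slc7a11 was there at 102 CPM in the large-size and 55.1 CPM in the medium-size tumor, a ratio of 1.84 (1.21 to 2.72). Gclc and Txnrd1 were both 1.64-fold higher, with intervals of 1.18 to 2.23 and 1.204 to 2.18. Between the cycling clusters (cluster 2 and cluster 5), 1 of 6 genes, Aldh3a1, differed 2-fold, against 22.2% of 2712 genes. It had 1 UMI in the large-size and 220 UMIs in the medium-size tumor, a ratio of 0.0266 (0.000670 to 0.1496). Aldh3a1 thus passed the minimum there through the medium-size tumor alone. Of its 220 UMIs, 177 were in 89 of the 300 cells of cluster 2. These cells had 4 or more UMIs, after thinning, of Yap1, Birc2, Dcun1d5, Tmem123 and Birc3 together. The cells with 0 or 1 had Aldh3a1 at 10.1 CPM (6.07 to 15.7). This interval overlapped with that of cluster 5 of the large-size tumor, 1.67 CPM (0.0423 to 9.31). Between the gastric pit clusters Aldh3a1, under the minimum, had 3 UMIs in the large-size and 63 in the medium-size tumor, a ratio of 0.576 (0.116 to 1.76). Nqo1, also under it, had 2 and 76 UMIs there, a ratio of 0.319 (0.0379 to 1.19), and 1 and 41 UMIs in the cycling clusters, a ratio of 0.143 (0.00352 to 0.840).

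In the macrophage-like cells, 3 genes passed the minimum of 200 UMIs, and 1 of them, Slc7a11, differed 2-fold, against 21.3% of 783 genes. It was at 260 CPM in the large-size and 658 CPM in the medium-size tumor, 2.53-fold lower (1.90 to 3.44) in the former. Hmox1 was 1.79-fold lower (1.35 to 2.42), at 280 against 503 CPM, and Nfe2l2 had a ratio of 0.734 (0.474 to 1.10). The macrophage-like cells of the large-size tumor had a median of 688 UMIs, against 3516 in the medium-size tumor, and the part of depth in this difference was not tested.

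Of the wider list, 48 genes were tested in the epithelial-like cells, of which 1 was higher in the large-size (4.91% of all genes were) and 20 in the medium-size tumor (17.8%), with a median log2 ratio of -0.71, against -0.14 over all genes. The gene that was higher was Txn1, thioredoxin, the substrate of Txnrd1, at 2091 CPM against 885 CPM, 2.36-fold (2.27 to 2.46), and Bach1 (1.83-fold) and Gstm1 (1.47-fold) followed. Txn1 was also higher in the large-size tumor in the macrophage-like cells (2.19-fold) and in the cycling clusters (2.13-fold), and in the gastric pit clusters it was at a ratio of 1.92 (1.73 to 2.13), under 2-fold. The lowest ratios were those of Gstp1, with 0 UMIs in the large-size and 691 UMIs in the medium-size tumor (at least 16.3-fold lower), Gsta3 (10.5-fold lower) and Ftl1 (8.19-fold lower). Ftl1 was also lower in the macrophage-like cells (6.04-fold) and in the gastric pit (6.49-fold) and cycling clusters (8.77-fold). Gstp1, Gsta3 and Ftl1 belong to families with near-identical copies, whose reads the counting may have split. Whether both tables were counted with the same gene models and the same treatment of such reads is not given in the sources used here, and its part in these differences was not tested, so these values are uncertain.

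In the macrophage-like cells, 5 of 14 tested genes of the wider list differed 2-fold, against the 21.3% of all genes. Gsr, glutathione reductase, was 2.05-fold higher (1.51 to 2.76) in the large-size tumor and Rbx1 was at a ratio of 1.55 (1.21 to 1.97), while Gpx4, which reduces lipid peroxides, was 2.12-fold lower and Slc3a2, the partner of xCT, 2.10-fold lower. Slc3a2 was lower in the epithelial-like cells as well, at a ratio of 0.395 (0.301 to 0.510), where Slc7a11 was at 1.19. In the gastric pit clusters 13 of 33 genes differed, against 24.6%, of which 2 were higher and 11 lower in the large-size tumor (median log2 ratio -0.57, against -0.10 over all genes), with Me1, malic enzyme, 2.84-fold (2.02 to 3.93) and Gsta1 2.80-fold higher, and Gpx2 4.25-fold and Gsta3 3.58-fold lower. The cycling clusters had 13 of 31, against 22.2%, of which 1 was higher and 12 lower (median -0.62, against -0.10), with Gsta3 at 0 UMIs in the large-size tumor (at least 16.3-fold lower) and Gpx2 6.73-fold lower, and with Sod1 and Me1 at ratios of 1.37 and 1.32.

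The intestinal-like cells of the large-size tumor were set against its epithelial-like cells, since they bear the markers of the epithelium of another organ. Of the 7 genes with at least 50 UMIs, 5 differed at least 2-fold, against 49.6% of 3621 genes: Srxn1, Txnrd1, Gclc and Nfe2l2 were higher in the intestinal-like cells (4 of 7, against 15.7%) and Slc7a11 was lower (1 of 7, against 34.0%). The median log2 ratio, intestinal-like over epithelial-like, was 1.28 over the 7 genes and -0.48 over all genes. The minimum is on both groups together. Srxn1 passed it only through the intestinal-like cells (78 against 19 UMIs) and Slc7a11 only through the epithelial-like cells (75 against 3 UMIs), the group where each was higher.

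Srxn1 showed the largest difference. It had 78 UMIs in 259 intestinal-like cells, 327 CPM (258 to 408), and 19 UMIs in 688 epithelial-like cells, 14.9 CPM (8.97 to 23.3), and was 21.9-fold higher (13.1 to 38.3). It was at 383 CPM in cluster 4, with all 6 enterocyte markers and no goblet marker, and at 118 CPM (6 UMIs) in cluster 8. Cluster 8 had all 5 goblet markers and also 5 of the 6 enterocyte markers. Txnrd1 was at 590 CPM (497 to 696) against 156 CPM (135 to 179), 3.78-fold higher (3.03 to 4.72), and was as high in cluster 8 (608 CPM) as in cluster 4 (586 CPM). Of the other genes of the thioredoxin and peroxiredoxin system, Txnip, which encodes the inhibitor of thioredoxin, was 4.22-fold higher (3.20 to 5.54), and the rest were within 2-fold, Txn1 at a ratio of 1.31 (1.205 to 1.43), Prdx6 at 1.47 (1.09 to 1.96) and Prdx1 at 0.7505 (0.677 to 0.830).

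Gclc was at 272 CPM in the intestinal-like cells, 2.69-fold higher (1.97 to 3.65), and Nfe2l2 at 184 CPM, 2.42-fold higher (1.66 to 3.49). In both, the difference was seen in cluster 4 (3.11-fold and 2.80-fold) and not in cluster 8 (1.16-fold, 0.419 to 2.60, and 1.03-fold, 0.275 to 2.73, on 6 and 4 UMIs). Gclm, in contrast to Gclc, was at equal levels, 167 and 165 CPM, a ratio of 1.02 (0.706 to 1.43), so that the subunits of the ligase differed in this comparison. Slc7a11 had 3 UMIs, 12.6 CPM, against 75 UMIs, 58.8 CPM, and was 4.68-fold lower (1.54 to 23.2). Nqo1, under the minimum for a call, had 13 UMIs against 9, a ratio of 7.71 (3.05 to 20.4), all 13 in cluster 4. Hmox1 was at 71.2 and 40.0 CPM, a ratio of 1.78 (0.964 to 3.13). Aldh3a1 had 0 UMIs in the intestinal-like and 4 in the epithelial-like cells, and no fold is given at this depth.

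**Figure D4:**
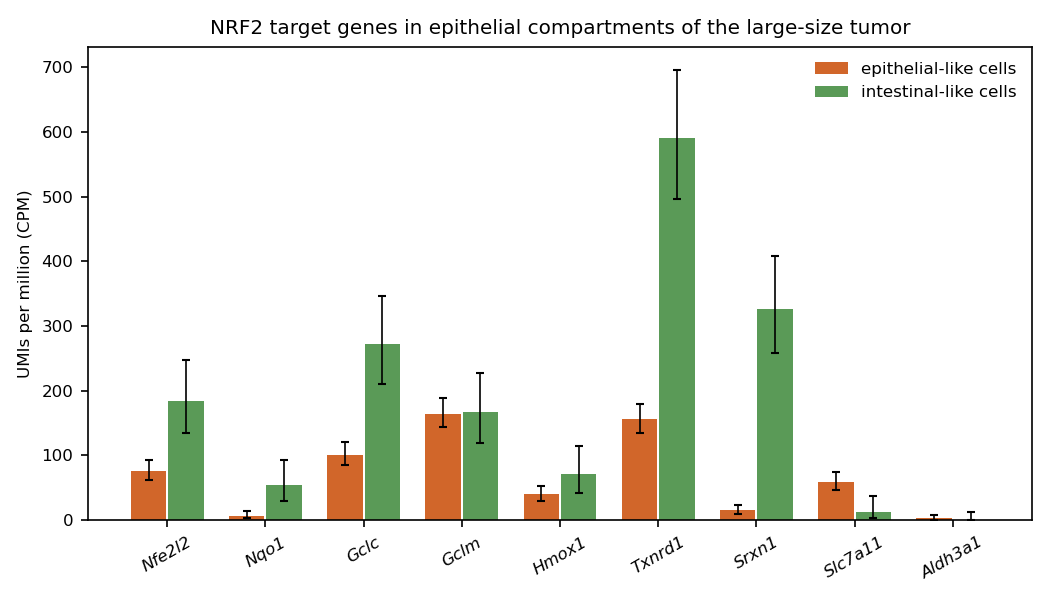
Level of each gene (CPM, linear axis from 0) in the 688 epithelial-like cells (orange) and the 259 intestinal-like cells (green) of the large-size tumor, with exact 95% Poisson intervals (counting error only), which for 0 UMIs end at the level of 3 UMIs. Srxn1, Txnrd1, Gclc and Nfe2l2 are higher in the intestinal-like cells and Slc7a11 lower, while the intervals of Gclm overlap.

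Of the wider list, 35 genes were tested here, of which 14 were higher (15.7% of all genes were) and 3 lower (34.0%) in the intestinal-like cells, with a median log2 ratio of 0.62, against -0.48 over all genes. The highest ratios were those of Slc40a1, the iron exporter ferroportin (35.5-fold, 22.1 to 60.01), Gsta1 (25.2-fold, 21.9 to 28.96) and Fth1 (19.6-fold, 18.9 to 20.3). The lowest were those of Gpx2 (5.52-fold lower), Gstm1 (4.68-fold lower) and Rbx1, the RING subunit of the KEAP1 ligase (3.11-fold lower). Ferroportin and ferritin are iron handling proteins of the duodenal enterocyte. Ftl1, which encodes the other ferritin chain, was within 2-fold (1.59, 1.40 to 1.81).

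The genes did not form 1 pattern across clusters. Over the 14 clusters of the medium-size tumor, which share 1 library but range from 3432 to 9566 median UMIs per cell, Pearson's r of log2(CPM + 1) was 0.89 for Nqo1 and Gclc, 0.70 for Gclc and Gclm, 0.75 for Nfe2l2 and Hmox1, 0.71 for Hmox1 and Slc7a11, and 0.77 for Txnrd1 and Slc7a11. It was -0.63 for Gclm and Hmox1 and -0.59 for Nqo1 and Hmox1. Slc7a11 was at 0.73 with Nfe2l2 and at -0.16 with both Gclc and Gclm. Over the 9 clusters of the large-size tumor with at least 30 cells, r was 0.67 for Nqo1 and Gclc and 0.69 for Nfe2l2 and Hmox1, but 0.35 for Gclc and Gclm, 0.37 for Hmox1 and Slc7a11, -0.34 for Nfe2l2 and Slc7a11 and -0.56 for Txnrd1 and Slc7a11. It was 0.56 for Nfe2l2 and Nqo1 (-0.51 in the medium-size tumor), 0.18 for Nqo1 and Hmox1 and 0.83 for Txnrd1 and Srxn1 (0.32 in the medium-size tumor). Slc7a11 was there at -0.77 with Gclc and -0.33 with Gclm, and Gclm and Hmox1 were at -0.47. The order of the pairs thus differed between the tumors. These are descriptions of few points.

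Among 4793 other genes with at least 500 UMIs in the medium-size tumor, those most like each gene over the 14 clusters were Lyz2 and Glrx for Nfe2l2 (r of 0.91 each), Abcc3 and Gsta1 for Gclc (0.93 and 0.90), Fkbp4 and Mrpl9 for Gclm (0.92 and 0.91), Fth1 and H2-Ab1 for Hmox1 (0.95 and 0.93), Pabpc1 and Mrps15 for Txnrd1 (0.88 and 0.85), Ccl3 and Tmem189 for Slc7a11 (0.92 each) and Rrp15 and Dcun1d5 for Aldh3a1 (0.85 and 0.84). These pairs were chosen as the highest in the medium-size tumor, so that a lower r elsewhere follows from the choice. In the large-size tumor it was, for instance, 0.38 for Hmox1 and Fth1 and -0.78 for Txnrd1 and Pabpc1. The highest was 0.82, for Gclm and Mrpl9.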

How the data were processed

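Per the labels, the libraries were made with the 10x Genomics Chromium Single Cell 3′ v2 kit from dissociated tumors, and the submitters' processing notes name Cell Ranger and mm10. Its version, the gene models and the rule by which barcodes were taken as cells are not given in the sources used here. Part of the genotype is not reported here. The authors deposited 1 table per tumor of raw UMI counts per gene symbol and cell barcode, with the 4 technical replicates pooled and no normalization, and 39 symbols name more than 1 gene row, which were kept apart.

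All barcodes were kept. Each tumor was clustered in Seurat 5.3.0 (R 4.3.3) with LogNormalize (scale 10000), 2000 variable genes (vst) less the 9 genes and the wider list, 10 principal components and a resolution of 0.8. Scrublet (scanpy 1.11.5) called 0 doublets in the medium-size and 9 (0.587%) in the large-size tumor. Cluster names rest on marker lists. A marker counted when seen in 10% of the cells of a cluster at 25% of the level of the highest cluster, 3 were needed, and a cluster with 60% of the markers of another type stayed unnamed, the cycling, gastric pit and mesenchymal lists being read as states and not as types. Enterocyte and goblet markers were read as kinds of epithelium. These thresholds were set after the marker values were seen, and the genes and lists were chosen with earlier results of these data known.

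UMIs were summed over the cells of a group, with exact Poisson intervals, exact conditional intervals for ratios and exact binomial intervals for shares, all at 95% and for counting error only. The floor for a count of 0 was 3 UMIs, in the values and in the calls over all genes. Between tumors, 1 UMI was added to each sum for the log2 ratio. Comparisons were described without tests. All 9 genes are named, and from the wider list the 3 highest and 3 lowest ratios of a comparison. The 2 genes most like each gene with at least 500 UMIs in epithelial-like cells, leading genes (the 3 largest ratios with 10 CPM added, among genes seen in 25% of the cells) and markers are also named. Ratios and intervals were run on counts simulated with counting error only, which cannot show how they behave under variation between cells, clusters or tumors. Positions are from GENCODE M21, in which the annotations that overlap a gene on its strand had 0 UMIs in the medium-size tumor.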

Additional observations from a re-analysis of the deposited data

How the results depend on the processing

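Of 92 counts of genes past 2-fold, for the 9 genes and for the wider list, recomputed under other settings, 86 stayed within 1.5 times the reported count. Of 352 ratios of single genes, 321 stayed within the counting interval of the reported ratio, and no called ratio changed direction. Part of this tally was fixed in advance. The highest over lowest ratios are 1 or more by construction and could not change direction, and dropping the UMI minimum does not alter a gene's own ratio. Without the UMI minimum, which lets in genes with few counts, 8 of the 9 genes differed between the epithelial-like clusters of the large-size tumor, in place of 4 of 5, and 31 genes of the wider list, in place of 16. At a resolution of 0.4, 7 of the 9 genes and 21 of the wider list differed between the classes of the medium-size tumor, in place of 8 and 28, Gclc being lost (log2 ratio 0.80, and 0.97 with cells thinned to 2500 UMIs). The same resolution, which left 3 epithelial-like clusters in the large-size tumor, left 2 genes that differed between them. With the cells of both tumors thinned to 500 UMIs, 1 of the 9 genes and 19 of the list passed the minimum, so that 0 and 8 differed between the tumors. Without cluster 3 of the medium-size tumor, an alternative chosen after the data were seen, 1 gene (Aldh3a1) differed between the tumors. Leaving out clusters 13, 5 or 8, or adding cluster 1 of the large-size tumor, also chosen later, left the counts of the 9 genes as reported, though without cluster 5 the highest over the lowest ratio of Slc7a11 fell from 5.39 to 2.81, that of Hmox1 from 3.49 to 2.25, the limit of Aldh3a1 from at least 70.5 to at least 33.8, and its difference between the tumors from 11.3-fold to 6.22-fold lower. TMM factors (edgeR 4.0.16) and size factors (DESeq2 1.42.0) shifted all log2 ratios between the tumors by 0.07 and 0.11 and left the 2 calls. No paired analysis was possible because the replicates numbered 1 to 4 in the labels are technical and pooled in 1 table per tumor, and for the same reason no replicate could be left out. Depth limits the large-size tumor, where Nqo1, Srxn1 and Aldh3a1 have at most 19 UMIs in the epithelial-like cells.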

Other observations

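Cluster 5 of the medium-size tumor, in which Aldh3a1, Slc7a11, Hmox1, Gclm and Txnrd1 were highest and Nfe2l2 lowest, was led by Yap1, Birc2 and Dcun1d5, with Tmem123 and Birc3 also among its 10 leading genes. Yap1, a transcriptional coactivator of the Hippo pathway, and Birc2 and Birc3, inhibitors of apoptosis, lie close together in the mouse genome. Yap1 was at 689 CPM in cluster 5, at 256 CPM in the cycling cluster 2, and between 34.7 and 64.0 CPM in the other epithelial-like clusters. Cluster 2 thus stood second in Yap1, as it did in Aldh3a1.

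The 300 cells of cluster 2 were therefore split by their summed UMIs of these 5 genes after thinning each cell to 2500 UMIs, a description chosen after the values were seen and without a test. The 89 cells with 4 or more of these UMIs had Aldh3a1 at 146 CPM (125 to 169), and the cells with 0 or 1 (57.3% of the cluster) at 10.1 CPM (6.07 to 15.7). Slc7a11 was at 106 CPM (88.1 to 126) and 26.0 CPM (19.2 to 34.4), and Gclm at 312 CPM (281 to 345) and 128 CPM (112 to 145). Gclc (101 against 65.2 CPM), Txnrd1 (181 against 114 CPM) and Srxn1 (37.1 against 19.1 CPM) were also higher, although Gclc and Srxn1 are not highest in cluster 5, and Nqo1 was at 13.2 against 10.1 CPM with overlapping intervals. Nfe2l2 went the other way, at 45.4 CPM (34.2 to 59.1) and 83.3 CPM (70.8 to 97.4). Hmox1, also highest in cluster 5, did not differ beyond its intervals, at 33.8 CPM (24.3 to 45.9) and 26.5 CPM (19.7 to 35.0). The cells with 4 or more had a median of 11580 UMIs and the others 8560, with median doublet scores of 0.0467 and 0.0492, and the part of depth was not tested. In cluster 1 only 10 of 525 cells had 4 or more, with Aldh3a1 at 95.3 CPM (45.7 to 175) against 10.6 CPM (7.28 to 15.0), Slc7a11 at 162 CPM (94.4 to 259) against 47.3 CPM (39.8 to 55.7), Gclm at 400.2 against 100.2 CPM and Gclc at 248 against 81.9 CPM. Txnrd1 (85.8 against 106 CPM) and Srxn1 (9.53 against 16.0 CPM) stood in the other order there, with overlapping intervals. In cluster 4 the 10 such cells had 0 UMIs of Aldh3a1, which allows up to 34.8 CPM. In cluster 5 itself the 37 cells with 0 or 1 had Aldh3a1 at 88.3 CPM (58.2 to 128) and the 165 cells with 4 or more at 128 CPM (111 to 145), intervals that overlap, while Slc7a11 was at 154 CPM (113 to 204) and 106 CPM (91.8 to 123), Gclm at 262 CPM (207 to 326) and 231 CPM (209 to 254) and Gclc at 164 CPM (121 to 216) and 121 CPM (105 to 138), so that the order seen in cluster 2 was not found within cluster 5 for Slc7a11, Gclm and Gclc. Nfe2l2 (65.4 and 39.3 CPM) and Srxn1 (6.54 and 23.9 CPM) stood there in the order of cluster 2, with overlapping intervals.

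The unnamed cluster 12 of the medium-size tumor, with epithelial and macrophage markers together, had Slc7a11 at 205 CPM (158 to 262) and Hmox1 at 180 CPM (136 to 233), between the levels of the epithelial-like and the macrophage-like cells, and 0 UMIs of Aldh3a1 in 60 cells. The unnamed cluster 1 of the large-size tumor had 0 UMIs of both Nqo1 and Aldh3a1 in 272 cells, which allows up to 6.75 CPM, and Gclm at 119 CPM (89.3 to 156) and Gclc at 98.9 CPM (71.9 to 133).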
